A study of Mus musculus with 20 samples.

Results

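The colony-stimulating factors are the cytokines that drive the production, survival and activation of myeloid cells, and 8 genes of this family were followed across the 20 libraries of the study. They were chosen by symbol: the ligands Csf1, Il34 and Csf3, and the receptor genes Csf1r, Csf3r, Csf2ra, Csf2rb and Csf2rb2. They are 8 of the 55487 rows of the prefrontal cortex count table and 8 of the 57180 rows of the hippocampal table. All 8 passed the filter on low counts in prefrontal cortex, as did 7 in hippocampus, where Csf3 did not.

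Gene expression was measured by sequencing of poly(A) RNA in wild-type C57/BL6 mice aged 2 to 6 months. Prefrontal cortex was dissected from males 24 hours after intraperitoneal lipopolysaccharide (LPS), a bacterial endotoxin, at 5 mg/kg (n = 4), or after 0.9% saline (n = 4). Hippocampus was dissected 24 hours after 0.2 mg/kg nicotine (n = 6), which activates the ion-channel class of acetylcholine receptors, or after 0.9% saline (n = 6). The labels give neither how nicotine was delivered nor the sex of the mice whose hippocampus was taken. The question in both tissues was which genes differed from saline.

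CSF1 and IL-34 are the ligands of CSF1R, the receptor tyrosine kinase on which microglia depend for survival. In brain, IL-34 is made mainly by neurons and CSF1 mainly by glia. CSF3, also called G-CSF, signals through CSF3R and drives neutrophil production. CSF2RA binds GM-CSF and pairs with CSF2RB, the beta chain shared by the receptors for GM-CSF, IL-3 and IL-5. Csf2rb2 is a beta chain gene of the mouse whose product serves IL-3 alone.

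In 4 of the 8 prefrontal cortex records the title gives the opposite treatment to the name of the count column, and the column name set the groups. Replicates are numbered within a group. Separate animals are stated only as biological replicates in the titles, so a p-value speaks for the spread among the libraries sequenced. Levels are in CPM, each count divided by its library's total after TMM scaling, and are listed in replicate order, and a gene was called at an edgeR adjusted p under 0.05. With LPS, 7313 of 17760 genes were called, which is 41.2%, with 3811 higher (21.5%) and 3502 lower (19.7%). Markers of 12 lists were summed in each library. Summed neuronal markers, which do not tell these regions apart, stood at 8167 to 9301 CPM with LPS and 7485 to 8542 CPM with saline. Summed striatal markers ranged from 287 to 1329 CPM among LPS libraries and from 208 to 1022 CPM among saline libraries of prefrontal cortex. In hippocampus, summed choroid plexus markers ranged from 59.9 to 2382 CPM with nicotine and from 42.8 to 4049 CPM with saline. Each call given here for the 8 genes was the same with the striatal or choroid plexus markers as a covariate.

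With LPS, 4 of the 8 genes rose in prefrontal cortex, 3 fell and Csf1r did not pass the test. The background was 21.5% of genes called higher and 19.7% lower. Ligands and receptors did not move together: Csf1 and Csf3 rose while Il34 fell, and both beta chain genes rose while Csf2ra and Csf3r fell. For 7 of the 8 genes the highest library of the lower group lay under the lowest of the higher group, as it did for 37.1% of all genes tested. In bulk tissue, fewer cells of a type and less RNA per cell cannot be told apart.

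**Figure D1:**
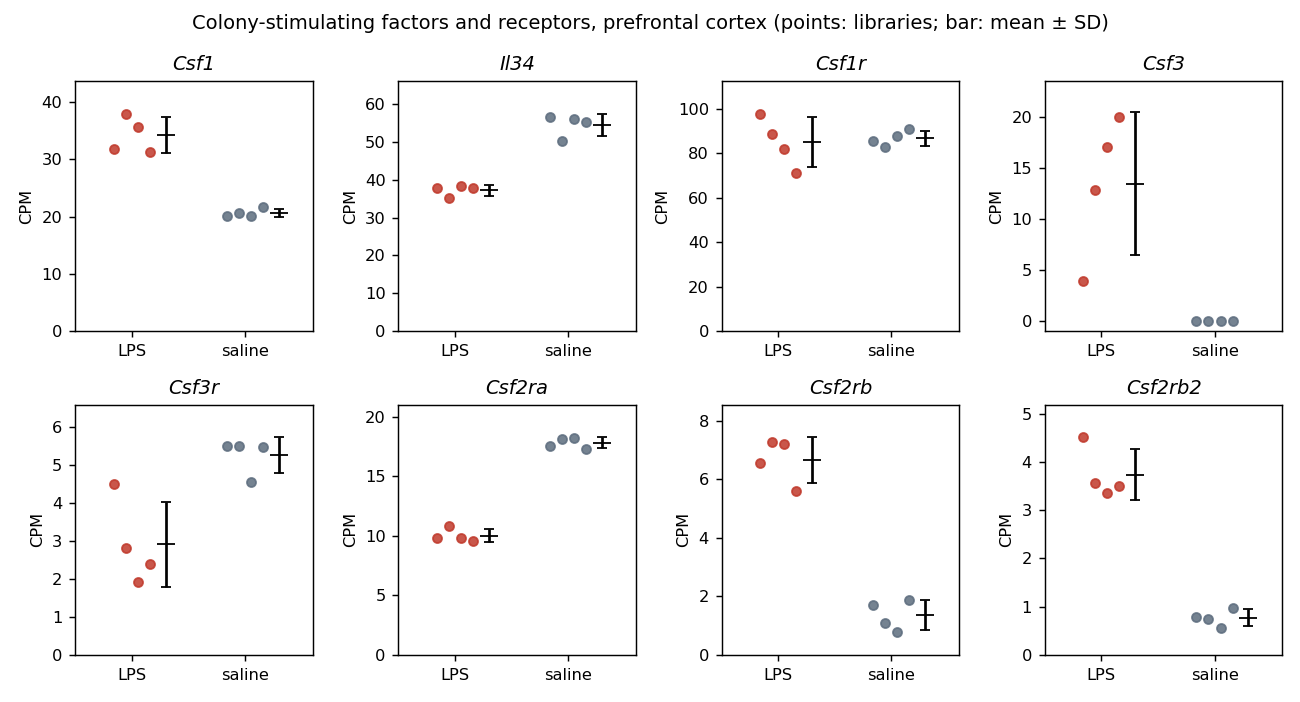
Levels of the 8 genes in prefrontal cortex. Each panel plots CPM (vertical axis, linear, its range set per gene) in the 4 LPS libraries and the 4 saline libraries, with 1 point per library and a bar for mean ± SD, which is left out where a library is at 0. The LPS points lie above all saline points for Csf1, Csf3, Csf2rb and Csf2rb2, below them for Il34, Csf3r and Csf2ra, and on both sides for Csf1r.

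Csf1 lies on the minus strand at chr3:107741048-107760469 (mm10). Its level was 31.8, 37.9, 35.6 and 31.3 CPM in the LPS libraries, against 20.1, 20.7, 20.2 and 21.6 CPM in the saline libraries. Every LPS library was above every saline library. Means were 34.2 ± 3.17 CPM with LPS and 20.6 ± 0.690 CPM with saline (SD, n = 4 each). Csf1 rose by 0.73 on the log2 scale (SE 0.09, 95% confidence interval 0.53 to 0.92), with an edgeR adjusted p of 0.000127.

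RefSeq's promoter table (GRCm38.p6, 250 bases before to 50 after the start site) gave windows for 4 of the 8 genes. Csf1r was left out of the search, so whether the table held it is not given. The 4 genes are shown because windows were found for them, not for their direction. They include a ligand and a beta chain gene that rose and the receptor genes that fell. They were searched on both strands for the PU.1 core GAGGAA, the C/EBP motif TTNNGNAA and the NF-kB motif (GGGA, any 2 bases, TTCC). Among 32841 promoters of the table, 28.3% held the PU.1 core, 40.7% the C/EBP motif and 1.47% the NF-kB motif. The window of Csf1, on the minus strand at chr3:107760420-107760719, held the NF-kB letters at -154 from the start site, on the opposite strand and in capitals here.
Csf1: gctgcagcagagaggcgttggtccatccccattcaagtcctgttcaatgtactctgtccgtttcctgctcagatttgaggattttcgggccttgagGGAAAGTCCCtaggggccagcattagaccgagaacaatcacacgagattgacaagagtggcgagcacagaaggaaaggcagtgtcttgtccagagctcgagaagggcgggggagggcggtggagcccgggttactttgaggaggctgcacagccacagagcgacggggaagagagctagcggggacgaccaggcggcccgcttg

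Il34 lies on the minus strand at chr8:110741829-110805924. It had 37.8, 35.1, 38.3 and 37.8 CPM in the LPS libraries, against 56.5, 50.2, 56.1 and 55.3 CPM in the saline libraries. The groups did not overlap, and the LPS libraries were close together. Means were 37.2 ± 1.45 CPM with LPS and 54.5 ± 2.92 CPM with saline (SD, n = 4 each). Il34 fell by 0.55 on the log2 scale (SE 0.07, 95% confidence interval -0.71 to -0.39; edgeR adjusted p = 0.000189). The antisense genes Gm15895 and Gm15894 share 75 and 22 of its exon bases. No source used here states whether counting used strand, so reads there cannot be assigned.

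Csf1r, the receptor for both ligands, lies on the plus strand at chr18:61100598-61132149. It had 97.8, 88.6, 82.0 and 71.3 CPM in the LPS libraries, against 85.5, 82.8, 87.6 and 90.8 CPM in the saline libraries. The groups overlapped, with LPS replicates at both the highest and the lowest value. The log2 change was -0.03 (SE 0.09, 95% confidence interval -0.23 to 0.17; edgeR adjusted p = 0.817), and without LPS replicate 4 it was 0.04. Hmgxb3, on the opposite strand, shares 873 exon bases of Csf1r, which is 15.1% of its exons.

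The balance between the ligands shifted with LPS. Il34 counts per Csf1 count were 1.09 with LPS and 2.64 with saline as geometric means. The lowest and highest libraries were 0.925 and 1.21 with LPS, and 2.43 and 2.81 with saline, so Il34 was ahead in every saline library by a margin that no LPS library reached. On the log2 scale the ratio was 0.13 ± 0.18 with LPS and 1.40 ± 0.10 with saline (SD, n = 4 each), a difference of -1.27. The exact 2-sided permutation test over libraries gave p = 0.0286, the smallest that 4 against 4 allows, and 0.0381 after Benjamini-Hochberg adjustment over the 4 ratios tested in the tissue. Without any single saline library the difference was -1.31 to -1.24 and did not pass (exact permutation, adjusted p = 0.0571). The libraries left still did not overlap between the groups, and the adjusted p depends on the other ratios too.

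Csf1 also shifted against its receptor. Csf1 counts per Csf1r count were 0.404 with LPS and 0.238 with saline, a difference of 0.76 on the log2 scale that again separated the groups (exact permutation p = 0.0286, adjusted p = 0.0381). Csf1r was set against the summed counts of 14 microglial marker genes, a list that does not hold Csf1r. That ratio was 0.219 with LPS and 0.189 with saline, a difference of 0.21 on the log2 scale (exact permutation p = 0.0286, adjusted p = 0.0381). Without any single saline library neither ratio passed, with differences of 0.75 to 0.78 (exact permutation, adjusted p = 0.0571) and of 0.17 to 0.24 (adjusted p = 0.0762). In both ratios the libraries left still did not overlap between the groups. The microglial list moved in both directions, where 21.5% of all genes were called higher and 19.7% lower. Of its 13 tested genes, 2 rose, C1qa and C1qb of the complement pathway, and 8 fell. The untested gene, Itgam, was listed at 0 in every library of both tissues and so added nothing to the sum. The summed level of the list was 348 to 462 CPM with LPS and 442 to 486 CPM with saline, with LPS replicate 1 highest in its group. The purinergic receptor gene P2ry12, a homeostatic microglial marker, averaged 5.67 ± 0.509 CPM with LPS and 31.0 ± 5.03 CPM with saline (SD, n = 4 each). It was named after its value was seen. The part of these markers in the results for Csf1r was not tested.

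**Figure D2:**
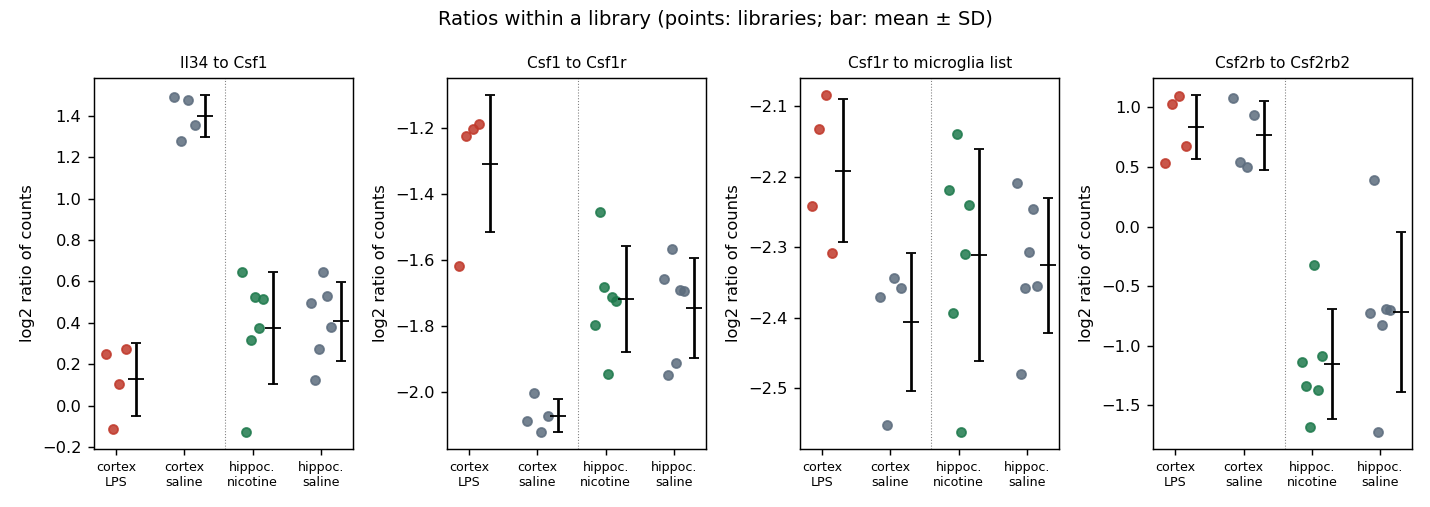
Ratios of counts within a library. Each panel plots the log2 ratio (vertical axis, range set per panel) for LPS and saline in prefrontal cortex and for nicotine and saline in hippocampus, left and right of the dotted line, with 1 point per library and a bar for mean ± SD. The Il34 to Csf1 ratio lies between -0.11 and 0.27 with LPS and between 1.28 and 1.49 with saline, and the 2 hippocampal groups overlap in every panel.

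Csf3, which encodes the neutrophil growth factor G-CSF, lies on the plus strand at chr11:98701263-98703629. It had 164, 546, 661 and 781 counts in the LPS libraries, against 0, 0, 0 and 1 in the saline libraries. The LPS libraries were themselves unequal, with replicate 1 at 3.93 CPM and replicate 4 at 20.0 CPM. The summed counts, 2152 with LPS and 1 with saline, gave a ratio of 2198 after scaling (exact 95% interval 394 to 86855, counting error only). Without saline replicate 4 the saline group was at 0, and Csf3 was at least 546-fold higher when 3 counts for the whole saline group are taken as the floor. Csf3 was called with an edgeR adjusted p of 4.36e-06.

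Csf3r, the receptor for G-CSF, lies on the plus strand at chr4:126024550-126044440. It had 4.51, 2.82, 1.91 and 2.41 CPM in the LPS libraries, against 5.51, 5.50, 4.56 and 5.49 CPM in the saline libraries. The highest LPS library, replicate 1, lay just under the lowest saline library, replicate 3. Csf3r fell by 0.85 on the log2 scale (SE 0.24, 95% confidence interval -1.37 to -0.34; edgeR adjusted p = 0.0132). LPS replicate 1 was thus lowest of its group in the ligand and highest in the receptor.

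Neutrophils carry Csf3r, and the neutrophil markers moved the other way in sum, though not each of them did. Their summed level was 8.15 to 12.98 CPM with LPS and 3.05 to 6.55 CPM with saline. S100a8, Mmp9 and Ngp rose among 4 tested of 12 listed, where 21.5% of all genes were called higher. S100a9, the other tested marker, averaged 1.78 CPM with LPS and 1.13 CPM with saline and was not called (edgeR adjusted p = 0.280). Of the untested markers, Ly6g had 1 count with LPS and 0 with saline over the group. Elane had 2 counts with LPS and 4 with saline, and Mpo had 15 counts with LPS and 22 with saline. Of the other untested markers, Mmp8 had 52 counts with LPS and 5 with saline, Retnlg 30 with LPS and 5 with saline, and Camp 18 with LPS and 12 with saline. Ltf had 27 counts with LPS and 50 with saline, and Cxcr2 had 11 with LPS and 16 with saline. The part of neutrophils in the Csf3r result was not tested. The window upstream of Csf3r, on the plus strand at chr4:126024409-126024708, held the PU.1 core at -86 and the NF-kB letters, on the opposite strand, at -129.
Csf3r: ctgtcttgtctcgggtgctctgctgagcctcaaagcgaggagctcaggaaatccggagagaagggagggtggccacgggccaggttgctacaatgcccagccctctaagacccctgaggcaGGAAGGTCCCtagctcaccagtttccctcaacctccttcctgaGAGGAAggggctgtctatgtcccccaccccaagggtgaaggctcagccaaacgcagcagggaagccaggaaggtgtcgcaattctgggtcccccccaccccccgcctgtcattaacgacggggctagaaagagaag

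Csf2ra, the ligand-binding chain of the GM-CSF receptor, lies on the minus strand at chr19:61223957-61228429. It had 9.81, 10.8, 9.83 and 9.57 CPM in the LPS libraries, against 17.6, 18.1, 18.2 and 17.2 CPM in the saline libraries. The spread within each group was small beside the gap between them. Means were 10.0 ± 0.551 CPM with LPS and 17.8 ± 0.462 CPM with saline (SD, n = 4 each). Csf2ra fell by 0.83 on the log2 scale (SE 0.09, 95% confidence interval -1.03 to -0.63; edgeR adjusted p = 6.49e-05). Its window, on the minus strand at chr19:61228369-61228668, held adjacent PU.1 cores at -14 and -8 and the C/EBP motif, on the opposite strand, at -31.
Csf2ra: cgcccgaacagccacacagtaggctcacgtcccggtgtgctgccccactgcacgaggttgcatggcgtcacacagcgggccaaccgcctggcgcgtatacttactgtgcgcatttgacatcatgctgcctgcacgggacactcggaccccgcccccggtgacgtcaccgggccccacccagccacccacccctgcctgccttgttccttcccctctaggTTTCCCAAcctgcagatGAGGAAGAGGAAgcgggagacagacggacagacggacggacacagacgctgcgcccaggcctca

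Csf2rb, the common beta chain, lies on the plus strand at chr15:78325752-78353847, and Csf2rb2 lies beside it on the minus strand at chr15:78282507-78305721. Csf2rb had 6.55, 7.27, 7.19 and 5.60 CPM in the LPS libraries, against 1.69, 1.10, 0.782 and 1.88 CPM in the saline libraries. Csf2rb2 had 4.51, 3.57, 3.36 and 3.51 CPM in the LPS libraries, against 0.795, 0.754, 0.549 and 0.974 CPM in the saline libraries. Every LPS library was well above every saline library for both genes. Csf2rb rose by 2.29 on the log2 scale (SE 0.25, 95% confidence interval 1.74 to 2.83; edgeR adjusted p = 5.46e-05). Csf2rb2 rose by 2.28 (SE 0.22, 95% confidence interval 1.80 to 2.77; edgeR adjusted p = 2.59e-05). The alpha chain of the receptor therefore fell while the beta chain genes rose.

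The beta chain genes are close copies, so their reads can be confused. Their coding sequences, of 2688 bases in Csf2rb and 2634 in Csf2rb2, were 95.2% identical over 2628 aligned bases, with a longest identical run of 242 bases. Of the 50-base stretches in their transcripts, 12.3% of those in Csf2rb and 18.4% of those in Csf2rb2 occurred in the other gene. No other pair among the 8 genes shared such a stretch. Leaving out windows that hold any of the 66 gap columns of the alignment, the 120-base window below shows where the coding sequences differ most. Its 22 differing bases are in capitals. It covers coding bases 309 to 428 of Csf2rb and 312 to 431 of Csf2rb2, each 5′ to 3′ along its own transcript.
Csf2rb: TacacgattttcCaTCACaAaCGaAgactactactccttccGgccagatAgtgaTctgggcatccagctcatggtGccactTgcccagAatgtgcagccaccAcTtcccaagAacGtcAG
Csf2rb2: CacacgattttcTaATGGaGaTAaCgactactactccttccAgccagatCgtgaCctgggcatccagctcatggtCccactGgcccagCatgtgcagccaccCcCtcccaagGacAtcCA

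The call held when the copies were taken as 1 gene. Their summed level was 10.4 ± 0.878 CPM with LPS and 2.13 ± 0.673 CPM with saline (SD, n = 4 each), and the pair rose by 2.29 on the log2 scale (SE 0.21, edgeR adjusted p = 1.91e-05). The share between them was alike in both groups: Csf2rb counts per Csf2rb2 count were 1.78 with LPS and 1.70 with saline. The difference of 0.07 on the log2 scale did not pass (exact permutation p = 0.629, adjusted p = 0.629). The window upstream of Csf2rb2, on the minus strand at chr15:78305672-78305971, held the PU.1 core on the opposite strand at -167 and 30, and the C/EBP motif at 9 and, on the opposite strand, at 30. The matches at 30 overlap.
Csf2rb2: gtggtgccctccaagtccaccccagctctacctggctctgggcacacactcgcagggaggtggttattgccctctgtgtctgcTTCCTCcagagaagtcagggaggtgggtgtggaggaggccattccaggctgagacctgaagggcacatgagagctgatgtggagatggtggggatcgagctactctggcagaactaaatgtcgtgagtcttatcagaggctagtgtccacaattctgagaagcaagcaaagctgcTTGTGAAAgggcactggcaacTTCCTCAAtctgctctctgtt

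The PU.1 core was thus present in 3 of the 4 windows, the C/EBP motif in 2 and the NF-kB motif in 2. Among all promoters searched, 28.3%, 40.7% and 1.47% held them, in that order. Such matches are letters in a window and are given as a description.

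**Figure D3:**
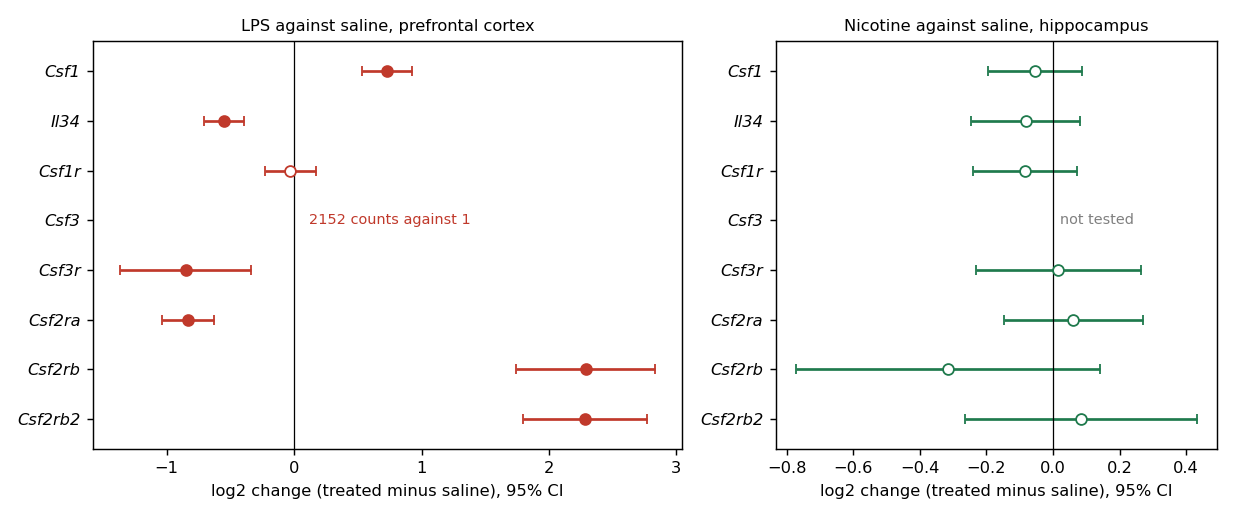
Changes of the 8 genes. The horizontal axis is the log2 change, treated minus saline, with its 95% confidence interval, for LPS in prefrontal cortex (left) and nicotine in hippocampus (right, on a narrower axis), and filled points passed an edgeR adjusted p of 0.05. Csf3 is given by its counts in prefrontal cortex, 2152 against 1, and was not tested in hippocampus, where no interval of the other 7 genes excludes 0.

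Levels of different genes were set side by side per kilobase of exon, on the GENCODE vM21 models of mm10. With LPS the order was Il34 at 19.0 CPM per kilobase, Csf1r at 14.7, Csf3 at 9.52, Csf1 at 6.47, Csf2ra at 3.49, Csf2rb at 0.914, Csf3r at 0.807 and Csf2rb2 at 0.788. Csf3 could not be placed apart from Csf1r or Csf1, and the lowest 3 genes overlapped their neighbours. With saline it was Il34 at 27.8 CPM per kilobase, Csf1r at 15.02, Csf2ra at 6.20, Csf1 at 3.91, Csf3r at 1.46, Csf2rb at 0.187, Csf2rb2 at 0.162 and Csf3 at 0.00420. Of these neighbours, only Csf2rb and Csf2rb2 overlapped. Csf1 and Csf2ra stood in opposite order in the LPS and saline groups. Exon lengths join all annotated transcripts of a gene, 7277 bases for Csf2rb and 4740 for Csf2rb2, and a level per kilobase depends on that choice.

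Most of the cytokines and receptors nearest to the family were not called or not tested. Of 15 genes listed, 10 were tested, 1 rose and 2 fell, where 21.5% of all genes were called higher and 19.7% lower. The median log2 change was -0.09, against 0.01 for all genes tested. Csf2, which encodes GM-CSF, had 0 counts in each LPS library, which allows up to 0.0704 to 0.0776 CPM at a floor of 3 counts, and 2 counts in saline replicate 3. Il3 was listed at 0 in every library of both tables. Kit, the stem cell factor receptor and a relative of Csf1r, averaged 30.1 ± 3.56 CPM with LPS and 41.2 ± 2.56 CPM with saline (SD, n = 4 each). It fell by 0.45 on the log2 scale (SE 0.10, edgeR adjusted p = 0.00347). Ptprz1, a phosphatase that also binds IL-34, averaged 191 ± 18.7 CPM with LPS and 224 ± 10.2 CPM with saline, and fell by 0.23 (SE 0.08, edgeR adjusted p = 0.0317). The gene that rose was Thpo, which encodes thrombopoietin, by 0.80 on the log2 scale (SE 0.23, edgeR adjusted p = 0.0161), named to complete the count.

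Signalling genes downstream of these receptors rose more often than they fell: of 31 tested, 16 rose and 4 fell, with a median log2 change of 0.38. The background was 21.5% of genes called higher and 19.7% lower. Of the genes that fell, Stat5b changed by -0.46 on the log2 scale (edgeR adjusted p = 0.00200) and Mapk3 by -0.31 (edgeR adjusted p = 0.00554). Tyk2 changed by -0.43 (edgeR adjusted p = 0.0283) and Jak2 by -0.22 (edgeR adjusted p = 0.0420). These 4 are named to complete the count. Fgr, a myeloid Src-family kinase, had 4.77, 3.94, 3.23 and 2.94 CPM in the LPS libraries, against 0.180, 0.135, 0.0845 and 0.285 CPM in the saline libraries. Its summed counts were 607 with LPS and 28 with saline, and it rose by 4.43 on the log2 scale (SE 0.33, edgeR adjusted p = 3.87e-06). Every LPS library was above every saline library.

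Socs3 encodes a feedback inhibitor of G-CSF receptor signalling. It had 11.8, 28.2, 31.0 and 29.9 CPM in the LPS libraries, against 3.26, 4.20, 2.92 and 6.89 CPM in the saline libraries. LPS replicate 1 was lowest of its group, as it was for Csf3, but it was highest of its group for Fgr and Csf2rb2. Socs3 rose by 2.55 on the log2 scale (SE 0.33, edgeR adjusted p = 0.000151). Cblb, a ubiquitin ligase that restrains receptor signalling, averaged 29.1 ± 2.70 CPM with LPS and 17.4 ± 1.29 CPM with saline (SD, n = 4 each), and rose by 0.74 (SE 0.10, edgeR adjusted p = 0.000197).

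Transcription factors of the myeloid lineage were the most shifted of the 3 pathway lists by median. Of 13 genes listed, 10 were tested, 7 rose and 1 fell, with a median log2 change of 0.95. Beside this, 21.5% of all genes tested were called higher and 19.7% lower. Cebpa, a factor that drives granulocyte and monocyte genes, averaged 24.3 ± 2.13 CPM with LPS and 9.52 ± 0.523 CPM with saline (SD, n = 4 each). It rose by 1.35 on the log2 scale (SE 0.10, edgeR adjusted p = 3.53e-06). Its relative Cebpd had 20.7, 36.0, 37.9 and 36.9 CPM in the LPS libraries, against 4.59, 4.47, 5.35 and 9.91 CPM in the saline libraries. The groups did not overlap, and LPS replicate 1 was again lowest of its group. Cebpd rose by 2.43 (SE 0.27, edgeR adjusted p = 5.68e-05) and Cebpb by 1.57 (SE 0.18, edgeR adjusted p = 7.86e-05). Spi1, which encodes PU.1, averaged 10.4 ± 1.51 CPM with LPS and 4.17 ± 0.764 CPM with saline, and rose by 1.32 (SE 0.17, edgeR adjusted p = 0.000136). The gene that fell was Sall1, a factor of microglial identity, which changed by -1.01 (SE 0.19, edgeR adjusted p = 0.00159). Irf8 was listed at 0 throughout the prefrontal cortex table, as was the neuronal gene Tubb3, so a 0 in that table need not mean that a transcript was absent.

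**Figure D4:**
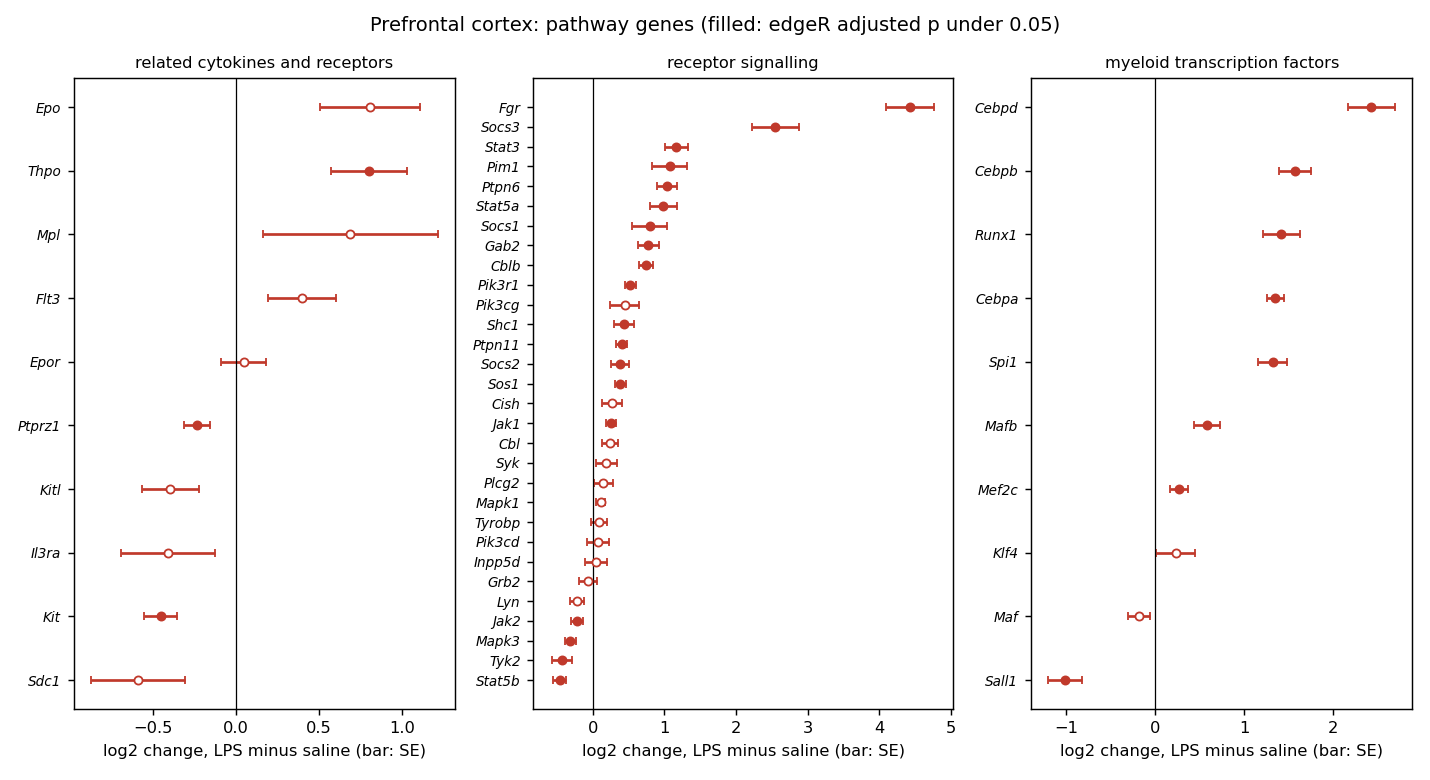
Genes around the family in prefrontal cortex. The horizontal axis is the log2 change, LPS minus saline, with its SE, for tested genes of the 3 lists, of which not every one is drawn, and filled points passed an edgeR adjusted p of 0.05. In the signalling list 16 of 31 genes rose, led by Fgr at 4.43, and 4 fell. In the transcription factor list 7 of 10 rose, led by Cebpd at 2.43, and 1 fell. Of all genes tested, 21.5% were called higher and 19.7% lower.

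Markers of other cell types are given beside these results. Over all genes tested, 21.5% were called higher and 19.7% lower. Summed border macrophage markers stood at 3.92 to 6.90 CPM with LPS and 5.65 to 10.6 CPM with saline, and 3 of 6 tested genes fell. Monocyte markers stood at 8.10 to 11.7 CPM with LPS and 9.40 to 13.1 CPM with saline, with 1 of 2 tested genes higher, and Ccr2 had 29 counts with LPS and 37 with saline. T cell markers ranged from 1.43 to 19.5 CPM with LPS and from 2.00 to 9.95 CPM with saline, with 0 of 2 tested genes called by edgeR. Most of that sum was Cd4, which averaged 11.0 of 11.5 CPM with LPS and 4.73 of 5.44 CPM with saline. Cd3d, Cd3e, Cd3g, Cd8a and Trac had 4, 5, 1, 10 and 57 counts with LPS, and 3, 8, 12, 12 and 82 with saline. Endothelial markers stood at 173 to 202 CPM with LPS and 140 to 175 CPM with saline, where 4 of 8 genes rose and 1 fell. Astrocyte markers stood at 4169 to 5220 CPM with LPS and 4625 to 4934 CPM with saline. The part of these cells in the results for the ligands and receptors was not tested.

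In hippocampus nicotine was followed by no called change in the family. Across the tissue edgeR called 0 of 18873 genes (0%), with 1577 at an unadjusted p under 0.05, while DESeq2 called 15 and limma-voom 0. None of the 7 tested genes of the family passed, none was under an unadjusted p of 0.05, and in each the groups overlapped. Over all genes tested, 0.387% had groups without overlap. The log2 changes ran from -0.32 for Csf2rb to 0.09 for Csf2rb2, with edgeR adjusted p from 0.691 to 0.982. The 95% confidence intervals of the 7 log2 changes lay between -0.77 and 0.43.

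Csf1 ranged from 24.5 through a median of 26.2 to 31.3 CPM with nicotine, and from 25.2 through 28.7 to 29.5 CPM with saline. Its log2 change was -0.05 (95% confidence interval -0.19 to 0.09). Il34 ranged from 28.7 through 35.6 to 38.3 CPM with nicotine, and from 32.0 through 36.5 to 41.2 CPM with saline. Both ligands overlapped between the groups over most of their range. The log2 change of Il34 was -0.08 (95% confidence interval -0.25 to 0.08). The ratio of Il34 to Csf1 counts was 1.30 with nicotine and 1.33 with saline, a difference of -0.03 on the log2 scale (exact permutation p = 0.827, adjusted p = 0.846). Csf3 had 3 counts in nicotine replicate 5 and 0 in the other 5 nicotine libraries, and 0 in all 6 saline libraries, where 3 counts would be 0.0426 to 0.0566 CPM.

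Csf1r ranged from 84.9 through 85.5 to 100.6 CPM with nicotine, and from 81.5 through 91.7 to 113 CPM with saline. The highest libraries were nicotine replicate 4 and saline replicate 2, which were also highest in summed microglial markers at 594 and 633 CPM. The microglial sums ran from 374 to 594 CPM with nicotine and from 387 to 633 CPM with saline. The log2 change of Csf1r was -0.09 (95% confidence interval -0.24 to 0.07), and the ratio of Csf1r to the microglial list was 0.202 with nicotine and 0.199 with saline (exact permutation p = 0.846, adjusted p = 0.846). Csf1 counts per Csf1r count were 0.304 with nicotine and 0.298 with saline (exact permutation p = 0.794, adjusted p = 0.846).

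Csf3r averaged 7.83 ± 1.02 CPM with nicotine and 7.75 ± 1.30 CPM with saline (SD, n = 6 each), with an interval of -0.23 to 0.26 for the log2 change. Csf2ra averaged 18.2 ± 3.33 CPM with nicotine and 17.4 ± 0.782 CPM with saline, with an interval of -0.15 to 0.27. The nicotine group spread more widely for Csf2ra, reaching from 14.5 to 24.2 CPM, against 16.2 to 18.5 CPM with saline. Csf2rb averaged 1.07 ± 0.348 CPM with nicotine and 1.34 ± 0.317 CPM with saline, and its interval of -0.77 to 0.14 was the widest of the 7. Csf2rb2 averaged 2.34 ± 0.379 CPM with nicotine and 2.20 ± 0.497 CPM with saline, with an interval of -0.26 to 0.43. Summed as 1 gene, the beta chains stood at 3.41 ± 0.492 CPM with nicotine and 3.54 ± 0.334 CPM with saline, and their log2 change was -0.05 (SE 0.12, edgeR adjusted p = 0.914).

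**Figure D5:**
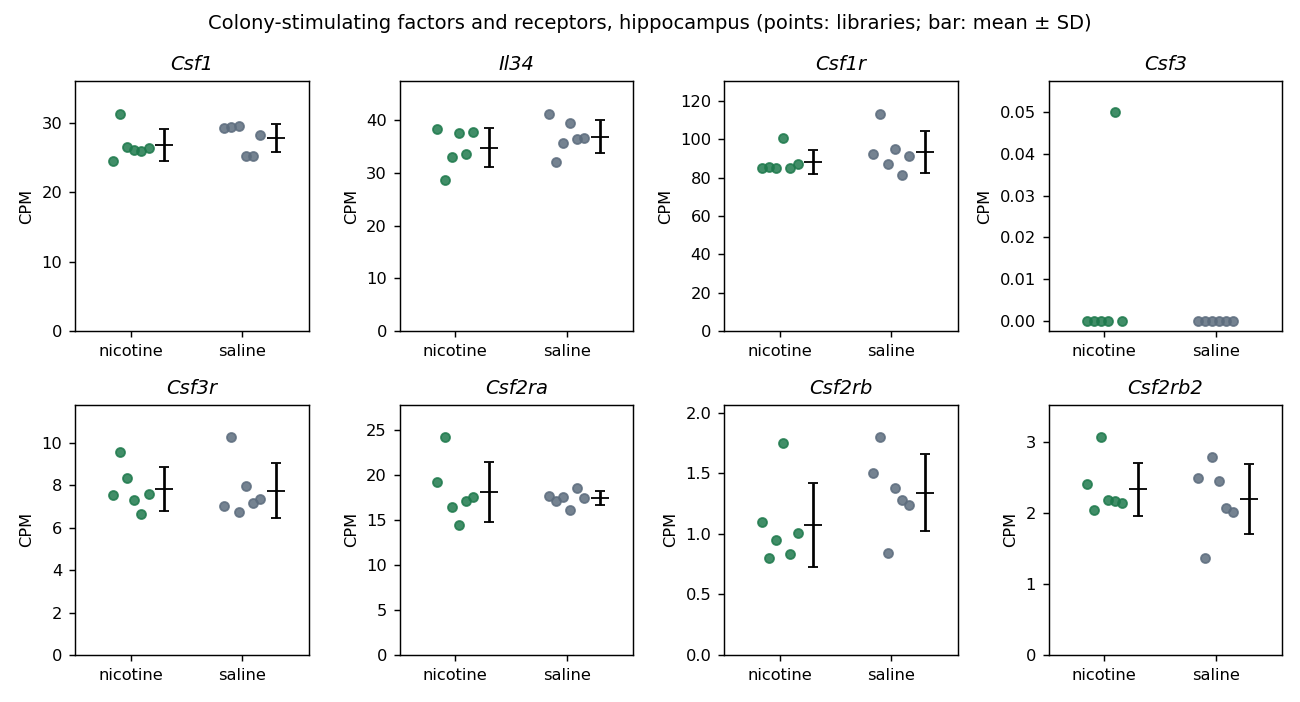
Levels of the 8 genes in hippocampus. Each panel plots CPM (vertical axis, linear, its range set per gene) in the 6 nicotine libraries and the 6 saline libraries, with 1 point per library and a bar for mean ± SD, which is left out where a library is at 0. The groups overlap in every panel, and Csf3 shows a single library above 0, at 0.04997 CPM.

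Per kilobase, the hippocampal order with nicotine was Il34 at 17.8 CPM per kilobase, Csf1r at 15.2, Csf2ra at 6.33, Csf1 at 5.07, Csf3r at 2.17, Csf2rb2 at 0.493, Csf2rb at 0.147 and Csf3 at 0.00589. With saline it was Il34 at 18.8 CPM per kilobase, Csf1r at 16.2, Csf2ra at 6.06, Csf1 at 5.26, Csf3r at 2.15, Csf2rb2 at 0.464, Csf2rb at 0.184 and Csf3 at 0. Il34 and Csf1r overlapped in both groups, and Csf2ra overlapped Csf1 with nicotine. By their means, the beta chain genes stood in the opposite order to prefrontal cortex, where their ranges per kilobase overlapped in both groups. Csf2rb counts per Csf2rb2 count were 0.449 with nicotine and 0.609 with saline in hippocampus (exact permutation p = 0.221, adjusted p = 0.846), beside the 1.78 with LPS and 1.70 with saline in prefrontal cortex. The hippocampal difference of -0.44 on the log2 scale was -0.22 without saline replicate 2, whose ratio was 1.31, and -0.64 without saline replicate 3. Tissue, batch and count table cannot be told apart in that contrast. Irf8, listed at 0 in the prefrontal cortex table, averaged 5.43 ± 0.505 CPM with nicotine and 5.50 ± 1.21 CPM with saline in the hippocampal table (SD, n = 6 each).

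The surrounding lists showed 0 genes called by edgeR with nicotine, of 9, 30 and 11 tested among the cytokines and receptors, the signalling genes and the transcription factors. The smallest p in the 3 lists belonged to Cebpd, which averaged 8.85 ± 1.52 CPM with nicotine and 12.4 ± 2.24 CPM with saline (SD, n = 6 each). It moved by -0.49 on the log2 scale (SE 0.13), with an unadjusted p of 0.00239 and an edgeR adjusted p of 0.555, and it was named after its value was seen.

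The genes whose levels ran most like those of the family were found by Pearson correlation of log2 CPM over all libraries of a table, which share their treatment groups. Over 8 libraries of prefrontal cortex, Csf1 ran closest to Ncl (r = 0.996), for nucleolin, and Il34 to Cars2 (r = 0.998), a mitochondrial tRNA synthetase gene. Csf3 ran closest to Acod1 (r = 0.997), the itaconate-producing enzyme of activated macrophages, then Wnt10b and Mt1. Csf3r ran closest to Iqcc (r = 0.992). Over 12 hippocampal libraries, Csf1 ran closest to Acot6 (r = 0.963), Il34 to Nelfcd (r = 0.941) and Csf1r to Rgs10 (r = 0.970), a regulator of G protein signalling found in microglia. These are the highest of 14648 and 14887 correlations per gene in the 2 tables and are given as a description.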

How the data were processed

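Prefrontal cortex (8 libraries, batch 1) and hippocampus (12 libraries, batch 2) each had a table of raw counts per gene, which the authors deposited without normalization. Per the labels' protocols, poly(A)-selected libraries of TRIzol-extracted RNA were prepared (Universal Plus mRNA-Seq, NuQuant). The submitters' processing notes name fastp, STAR, featureCounts, DESeq2 and mm10. No source used here states the annotation or whether counting used strand, so reads of antisense or near-identical genes may be split. Count columns of no sample numbered 0.

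Library totals were 39871000 to 42924749 counts with LPS and 36371084 to 46106526 with saline in prefrontal cortex. They were 53145736 to 62982229 with nicotine and 51969343 to 68196280 with saline in hippocampus. Across all genes, the median half-width of the 95% interval of the log2 change was 0.295 for LPS and 0.222 for nicotine. Libraries of the same group differed by more than sampling noise (chi-square over degrees of freedom at least 11.8). Of 57180 hippocampal identifiers, 51884 matched gene names.

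Groups in prefrontal cortex came from the column name quoted in the description, because the title contradicts it in 4 records. Fits used edgeR 4.0.16 under R 4.3.3, separately per tissue (TMM, filterByExpr, quasi-likelihood F-test, Benjamini-Hochberg over all genes, threshold 0.05). Tissues were not tested against each other. Ratios of counts, with 0.5 added, were tested by exact 2-sided permutation over libraries. Named pathway genes were up to 4 per list with the smallest p among those called without overlap, and others named are marked where they appear. Some genes that these rules name are left out of the text. The 3 genes most like a member were sought among genes of at least 1 CPM, with a prior count of 2. The 8 genes, the lists, the ratios and the motifs were chosen with earlier results of these data known. Counting intervals and floors of 3 counts cover counting error alone, because reads lacking molecular identifiers may be copies of a molecule.

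Alternatives were RLE factors, no filter, a filter of 1 CPM, DESeq2 1.42.0, limma-voom (limma 3.58.1), each library left out, a replicate block, marker covariates, grouping by title, the 4 libraries whose labels agree and, added after seeing the data, Csf2rb and Csf2rb2 summed. DESeq2 left 4 adjusted p missing in prefrontal cortex and 3 in hippocampus. Each fit was tested on simulated data in which 200 genes were changed.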

Additional observations from a re-analysis of the deposited data

Results flagged for a closer look

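Single libraries stood apart from the rest of their group, by a gap to the nearest library that passed Dixon's 95% limit, which chance passes in about 1 of 20 groups. In prefrontal cortex, Il34 in LPS replicate 2 was 35.1 CPM, with the nearest LPS library at 37.8 CPM. Csf3r in saline replicate 3 was 4.56 CPM, with the nearest saline library at 5.49 CPM. Csf3 in saline replicate 4 was 0.0238 CPM, from 1 count, with the other saline libraries at 0.

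In hippocampus, nicotine replicate 4 was highest of its group in Csf1r, at 100.6 CPM with the nearest library at 87.0 CPM, and in Csf2rb, at 1.75 CPM with the nearest at 1.09 CPM. Csf1 in nicotine replicate 2 was 31.3 CPM, with the nearest at 26.5 CPM. Csf2rb2 in nicotine replicate 3 was 3.07 CPM, with the nearest at 2.41 CPM. Csf3 in nicotine replicate 5 was 0.04997 CPM, from 3 counts, with the other nicotine libraries at 0. Csf3r in saline replicate 2 was 10.3 CPM, with the nearest saline library at 7.97 CPM.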

How the results depend on the processing

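In prefrontal cortex, 129 of 137 values of the 8 genes under alternatives kept their direction and side of the threshold, and 128 of 129 without the grouping by title. Grouping by title, edgeR called 0 genes (0 higher, 0 lower), with 201 at an unadjusted p under 0.05. The log2 changes were then -0.026 for Csf1, 0.061 for Il34, -0.11 for Csf2rb, -0.20 for Csf2rb2, 1.14 for Csf3, -0.35 for Csf3r and -0.036 for Csf2ra. The ratio differences were 0.075 for Il34 to Csf1, 0.088 for Csf1 to Csf1r and 0.051 for Csf1r to the microglial list (exact permutation, adjusted p = 0.971). The cause of the contradicting labels was not tested.

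Leaving out libraries in turn, prefrontal cortex calls numbered 5703 to 8481, and Csf1r ran from -0.10 to 0.038, higher only without LPS replicate 4. The ratio differences ran from -1.32 to -1.19 for Il34 to Csf1, 0.72 to 0.86 for Csf1 to Csf1r, 0.17 to 0.25 for Csf1r to the microglial list and -0.020 to 0.17 for Csf2rb to Csf2rb2. Without any single LPS library the first 3 ratios kept an adjusted p of 0.0381, and without any single saline library none passed, at 0.0571, 0.0571 and 0.0762 in that order (exact permutation). In hippocampus, calls numbered 0 to 1, the single call coming without nicotine replicate 5, and DESeq2 called 15 (8 higher, 7 lower). Of 134 hippocampal values, 126 kept direction and 8 turned, all uncalled. Csf2ra ran from -0.035 to 0.12 (turned without nicotine replicate 2), Csf2rb2 from -0.019 to 0.16 (saline replicate 2 or nicotine replicate 3), and Csf3r from -0.048 to 0.11 (saline replicates 1, 3 or 5, nicotine replicates 2 or 3). Ratio differences there ran from -0.089 to 0.069 for Il34 to Csf1, -0.027 to 0.071 for Csf1 to Csf1r and -0.019 to 0.065 for Csf1r to the microglial list, and from -0.64 to -0.22 for Csf2rb to Csf2rb2.

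The replicate numbers of the titles did not pair the libraries: deviations of same-numbered libraries correlated at -0.16 to -0.03 in prefrontal cortex and -0.17 to 0.44 in hippocampus, and 0 of 8 and 2 of 12 libraries ran closest to their own number. With the replicate block, edgeR called 6064 genes in prefrontal cortex and 0 in hippocampus, and the 8 genes kept their calls. An exact sign-flip test over 4 pairs gave the ratio differences -1.27, 0.76 and 0.21 an adjusted p of 0.125, the smallest it allows. It gave the difference of 0.07 for Csf2rb to Csf2rb2 the same 0.125, so it did not set the ratios apart. Csf3 had no tested value in hippocampus. Among the 7 genes tested in hippocampus, Csf2rb had the fewest counts and the widest interval.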
